A study of Mus musculus with 2 samples.

Results

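The 36 genes described here make up a module of the secretory pathway and of protein folding in the endoplasmic reticulum (ER), measured in single femur cells that carry a Ctsk-Cre reporter. They were chosen by name and role, with earlier results of these data known, and all 36 were among the 24866 genes of the count table. By role they comprise 9 ER chaperones and co-chaperones, 4 protein disulfide isomerases, 3 subunits of the Sec61 translocon, 4 subunits of the translocon-associated protein (TRAP) complex and 4 genes of the signal peptidase. The other genes are 3 KDEL receptors, 6 transcription factors and outputs of ER stress and degradation, and 3 genes of vesicle coats and procollagen export.

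The cells came from the femurs of 2 littermate C57/B6 mice of genotype CTSK-cre+ mTMG at postnatal day 6. Cre is driven by the cathepsin K promoter, and its action switches the mTmG reporter to membrane GFP, so a sorted cell has used that promoter itself or descends from a cell that did. All sorted cells were GFP-positive, and no reporter-negative cells, other genotypes or other ages were analysed here. Animal 1 filled plate 47 and animal 2 filled plate 48, so animal and plate cannot be told apart, and the comparisons are between classes of wells within both animals.

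Of 658 wells, 653 were kept, 318 in animal 1 and 335 in animal 2, with medians of 101207 and 119126 counts per well and a range over both of 9767 to 675621. Mitochondrial genes gave 26.7% to 94.2% of the counts in the 5 wells that were not kept. A nonzero value had a median of 18 counts, and 23.1% of nonzero values were 1, so a count was not read as a molecule. Of the barcode and quadrant names, 280 occurred in both plates, each of which holds the cells of its own animal. Markers of several cell types that the sort should leave out were low. Macrophage markers summed to 16.3 and 15.3 CPM (counts per 1000000 counts) in animals 1 and 2, neutrophil markers to 7.88 and 6.76 CPM and endothelial markers to 7.01 and 5.49 CPM. Other lists summed higher: Schwann markers to 107 and 167 CPM, osteoclast markers to 57.9 and 68.6 CPM and skeletal muscle markers to 24.7 and 21.4 CPM. The table held 0 genes named for GFP or Cre, so the reporter itself could not be checked. CPM is scaled to all counts of the same wells and is not corrected for transcript length, so levels are compared between wells and not between genes.

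A protein bound for secretion enters the ER through the Sec61 channel, helped by the TRAP complex, and signal peptidase removes its signal sequence. In the ER lumen, chaperones such as Hspa5 (BiP) and Hsp90b1 (GRP94) and disulfide isomerases fold it, while KDEL receptors return escaped ER residents from the Golgi. COPII coats then carry cargo out of the ER, and Mia3 (TANGO1) helps to load procollagen, whose large size sets it apart from most cargo. When folding demand is high, the sensors of the unfolded protein response act through factors such as Xbp1, Atf4 and Ddit3 (CHOP), and in mouse bone the related factor Creb3l1 (OASIS) is needed for normal type I collagen production by osteoblasts.

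The promoters of several members carry the short elements that unfolded protein response factors are known to bind, and the matches are shown so that the letters behind each count can be read. Promoters were RefSeq sequences of build GRCm38.p6, from 250 bases before to 50 bases after the gene's start, and 29 of the 36 members matched. The ER stress response element was searched as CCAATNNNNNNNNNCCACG on both strands. It occurred in 6 of the 29 member promoters, against 39 of all 32851 promoters (0.119%). They belong to 5 chaperones and to the disulfide isomerase Pdia6, and Hsp90b1 holds it at 2 places. The windows below have the element in capitals, 5 bases on each side, and run 5′ to 3′ on the strand named.
Calr, chr8:84847070-84847098, + strand: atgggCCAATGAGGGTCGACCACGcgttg
Canx, chr11:50325795-50325823, - strand: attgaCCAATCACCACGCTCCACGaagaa
Dnajc3, chr14:118937822-118937850, + strand: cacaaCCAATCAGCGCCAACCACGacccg
Hsp90b1, chr10:86705528-86705556, + strand: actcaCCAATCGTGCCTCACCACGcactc
Hsp90b1, chr10:86705633-86705661, - strand: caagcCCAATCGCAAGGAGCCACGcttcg
Hspa5, chr2:34772020-34772048, + strand: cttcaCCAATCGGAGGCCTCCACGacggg
Pdia6, chr12:17266486-17266514, + strand: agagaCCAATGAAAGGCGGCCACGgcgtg

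A second form, ER stress response element II, was searched as ATTGGNCCACG on both strands and occurred in 2 of the 29 member promoters, against 12 of all promoters (0.0365%). Dnajb11 encodes a co-chaperone of Hspa5, and Herpud1 a membrane protein of ER-associated degradation.
Dnajb11, chr16:22857847-22857867, + strand: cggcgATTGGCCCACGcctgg
Herpud1, chr8:94386372-94386392, + strand: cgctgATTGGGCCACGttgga

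The unfolded protein response element, which is known to be bound by Xbp1 and related factors, was searched as TGACGTGG on both strands. It occurred in 3 of the 29 member promoters, against 222 of all promoters (0.676%). These belong to a KDEL receptor and to both COPII coat members of the module.
Kdelr3, chr15:79516373-79516390, - strand: cgcggTGACGTGGcgggg
Sec23a, chr12:59011999-59012016, - strand: cccttTGACGTGGcagag
Sec24d, chr3:123267465-123267482, + strand: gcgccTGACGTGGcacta
A match is a description of these letters in this window and not a shown binding site. The 7 members without a matched promoter are Creb3l1, Kdelr2, Manf, Sec11c, Sec61a1, Spcs3 and Ssr2.

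The module took a similar share of the RNA counts in both animals, with 12209 summed CPM in animal 1 and 11949 in animal 2. TRAP subunits gave the most of it, 3441 and 3407 CPM, or 28.3% of the module. Chaperones gave 1848 and 1734 CPM (14.8%), KDEL receptors 1648 and 1464 CPM (12.9%) and disulfide isomerases 1340 and 1314 CPM (11%). The vesicle coat and procollagen export members gave 293 and 245 CPM (2.23%). Every well had a count of some member, and 438 of the 653 wells had counts of at least 18 of the 36. Detection was uneven within the module. Ssr4, a TRAP subunit, was detected in 96.3% of wells, and Sec61b, a subunit of the translocon, in 95.4%. The co-chaperone gene Sdf2l1 was detected in 6.13% of wells and the procollagen export gene Mia3 in 18.5%.

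Wells were grouped into 9 classes by 113 marker genes that hold no member, and a class took a cell type name only where its markers met a fixed rule. The classes were chondrocyte-like (174 wells), tendon and ligament-like (68), fibroblast-like (67), articular and synovial-like (47), pericyte and smooth muscle-like (17), osteoblast-like (16) and 3 classes that stayed unnamed. The unnamed classes are called class 2 (111 wells, led by Smoc1, Cetn4 and Chst10), class 3 (98 wells, led by Abca8a, Ccl11 and Il1rn) and class 6 (55 wells, led by Mmp9, Crabp1 and Megf6). Since the markers formed and named the classes, their levels are no test of the names: 16 of 17 osteoblast markers were raised in the osteoblast-like class, and 10 of 12 pericyte and smooth muscle markers in the pericyte-like class. The osteoblast list summed to 26030 CPM in osteoblast-like wells and 2058 CPM in all other wells.

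The summed module was highest in the osteoblast-like class, at 19270 CPM in animal 1 and 16839 CPM in animal 2, a mean of 18055 ± 1719 CPM (SD, n = 2 animals). In the other 8 classes no animal exceeded 13542 CPM. Of the next 5 classes, class 6 and the articular and synovial-like class overlapped all the others, while tendon and ligament-like wells lay below chondrocyte-like wells and class 2 in both animals: chondrocyte-like 13001 ± 765, class 2 12763 ± 439, class 6 12378 ± 1120, tendon and ligament-like 11832 ± 259 and articular and synovial-like 11573 ± 1723 CPM (SD, n = 2 animals each). Class 3 with 9794 ± 117 CPM and the fibroblast-like class with 9588 ± 949 CPM also overlapped each other. The lowest was the pericyte and smooth muscle-like class, with 6179 and 7420 CPM in animals 1 and 2, a mean of 6800 ± 877 CPM. Single wells varied widely within a class. Osteoblast-like wells ranged from 4635 to 28433 CPM in animal 1 and from 7197 to 25353 CPM in animal 2, and their medians over wells, 13221 and 16731 CPM, were below the class sums. The share of RNA is a relative measure, and fewer such transcripts per cell and more of other RNA cannot be told apart.

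**Figure D1:**
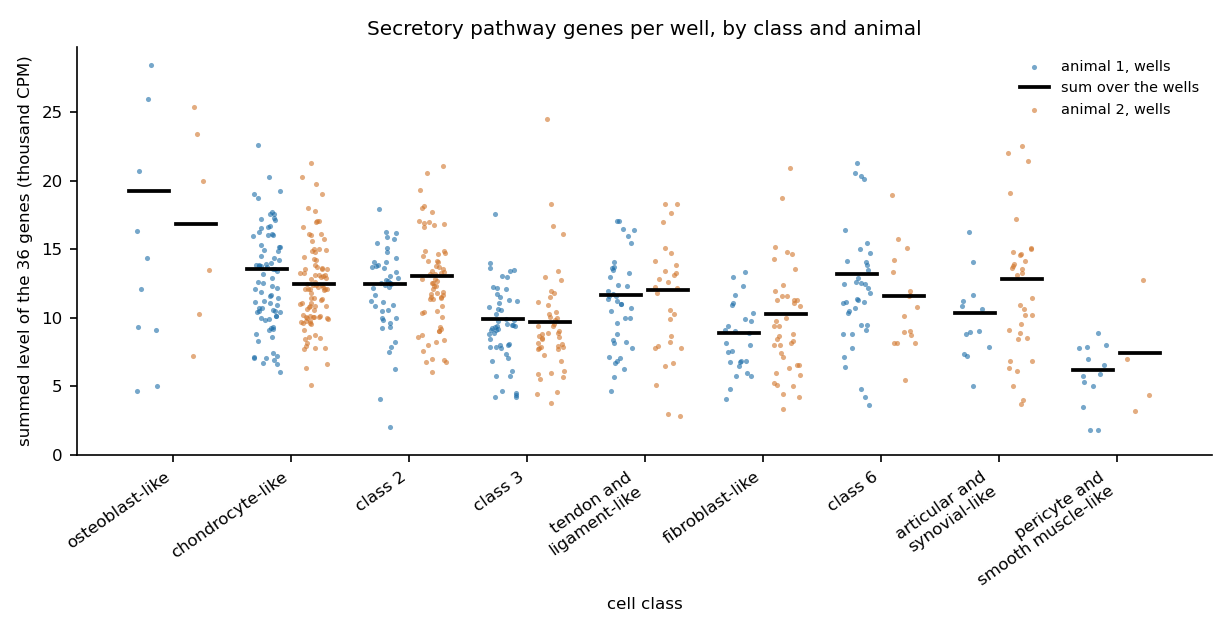
Summed level of the 36 members, in CPM as scaled on the axis, for each of the 9 classes, with animals 1 and 2 in separate columns, 1 point per well and a bar for the level summed over the wells. The class sums of the osteoblast-like class, 19270 and 16839 CPM, lie above those of every other class, while its single wells overlap wells of the other classes.

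By role, the osteoblast-like class was highest of the 9 classes in both animals for 5 of the 8 roles. The TRAP complex summed to 5566 and 5963 CPM in osteoblast-like wells of animals 1 and 2, against at most 4188 and 3839 CPM in any other class. The KDEL receptors summed to 2933 and 2413 CPM, against at most 1899 and 1752 CPM. These roles concern entry into the ER and retrieval to it. The Sec61 translocon summed to 1852 and 1906 CPM in osteoblast-like wells, against at most 1306 and 1284 CPM elsewhere. The signal peptidase summed to 1902 and 1726 CPM, against at most 1390 and 1458 CPM. The chaperones behaved otherwise: their sum in osteoblast-like wells was 2372 CPM in animal 1, the highest of any class, and 1189 CPM in animal 2, the lowest.

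With 10 and 6 wells, the osteoblast-like class fell below the minimum of 10 wells per animal set for the test, so its test was an addition made after the data were seen. In that fit, counts were summed per animal and class, and each class was set against the mean of all the others by edgeR's quasi-likelihood test, with trimmed-mean (TMM) scaling, animal as a block and p adjusted over all 13583 genes by Benjamini-Hochberg. A gene was called at an adjusted p of at most 0.05. In osteoblast-like wells 4 of 36 members rose and 0 fell, while 0.839% of all genes tested rose and 0.604% fell. At an unadjusted p under 0.05 there were 13 members higher and 2 lower, and DESeq2 called 10 higher and 2 lower. Among genes at a mean of at least 100 CPM, where 26 members lie, 2.30% rose, and these include the same 4 members. The members' median log2 fold change was 0.51 against -0.51 over all genes, and 29 of 36 members lay above that median. With wells thinned to 10000 counts the members' median was 0.12.

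The transcription factor gene Creb3l1 (chr2:91982328-92024502, - strand, mm10) had the largest change. Its level was 372 and 325 CPM in osteoblast-like wells of animals 1 and 2. In the other classes it lay between 0.934 and 216 CPM in animal 1 and between 0 and 109 CPM in animal 2. The groups did not overlap, and the log2 fold change was 2.84 ± 0.36 (standard error, edgeR adjusted p = 0.0024). It was detected in 10 of the 16 osteoblast-like wells, and 1 well of animal 1 held 39.9% of its counts there. Without that well its level in animal 1 was 185 CPM, below the 216 CPM of tendon and ligament-like wells and the 190 CPM of class 6.

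Xbp1 (chr11:5520659-5525893, + strand), whose spliced form drives secretory genes, stood at 1394 and 616 CPM in osteoblast-like wells, against 251 to 503 CPM in the other classes of animal 1 and 223 to 437 CPM in those of animal 2. The log2 fold change was 1.55 ± 0.26 (edgeR adjusted p = 0.0144). One well of animal 1 held 50.8% of the class's Xbp1 counts, and without it the level there was 639 CPM, still above every other class of that animal. Counts per gene do not separate the spliced from the unspliced form.

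Kdelr2 (chr5:143403838-143421901, + strand), a KDEL receptor, had 1821 and 1796 CPM in osteoblast-like wells, against 316 to 1276 CPM in other classes of animal 1 and 303 to 1102 CPM in those of animal 2. Its log2 fold change was 1.12 ± 0.20 (edgeR adjusted p = 0.0167). The TRAP subunit gene Ssr3 (chr3:65379655-65392623, - strand) had 1024 and 1014 CPM, against 324 to 643 and 379 to 610 CPM, a log2 fold change of 1.09 ± 0.17 (edgeR adjusted p = 0.0116). Both genes were high in both animals without overlap, and they rested less on 1 well, which held 19.4% of the Kdelr2 and 21.4% of the Ssr3 counts of the class.

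**Figure D2:**
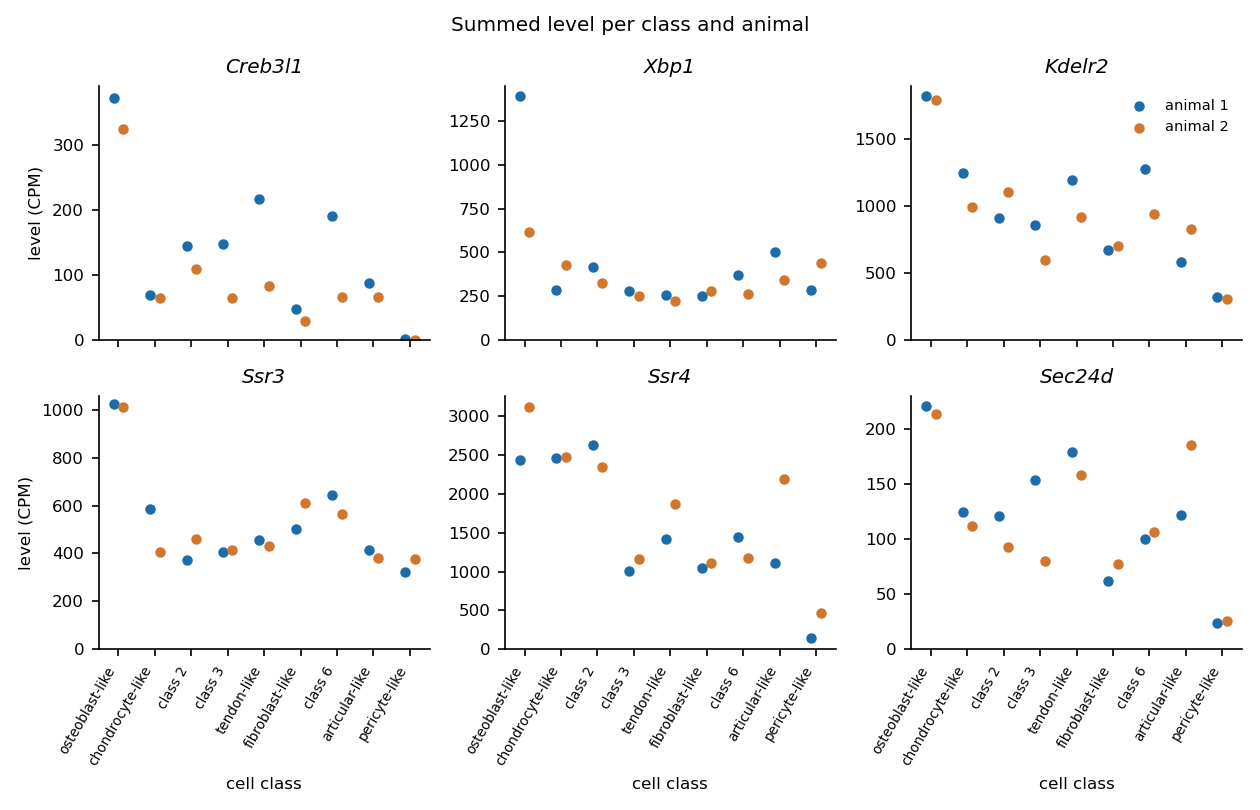
Level in CPM of 6 members by class, with a point for each animal: the members called in the osteoblast-like class, and Ssr4 and Sec24d. Creb3l1, Xbp1, Kdelr2 and Ssr3 of osteoblast-like wells lie above every other class of the same animal, and Ssr4, Kdelr2 and Sec24d are lowest in pericyte-like wells.

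In all, 11 members were highest in the osteoblast-like class in both animals: Sec61a1, Sec61b and Sec61g of the translocon, Ssr1, Ssr2 and Ssr3 of TRAP, Kdelr1, Kdelr2, Creb3l1, Xbp1 and the COPII gene Sec24d. The share of all genes that were highest in this class is not given here, so the 11 is not read as particular to the module. Those of the 11 that were not called came close in several cases. Sec61b had 1438 and 1498 CPM in osteoblast-like wells, with an edgeR adjusted p of 0.0533. Ssr2 had 1695 and 1389 CPM, with an edgeR adjusted p of 0.0538. The 10 members with a negative log2 fold change, none of them called, were 6 chaperones, Pdia3, Spcs3, Ddit3 and Herpud1. Pdia3, a glycoprotein disulfide isomerase, was lowest of the 9 classes in both animals at 44.5 and 42.2 CPM. Dnajb9, an Hspa5 co-chaperone, had 21.7 and 8.07 CPM in osteoblast-like wells, with a log2 fold change of -2.64 ± 0.71 that was not called by edgeR (adjusted p = 0.116).

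Depth and handling signals differed alongside these values. Osteoblast-like wells had median depths of 163952 and 196694 counts in animals 1 and 2, against at most 145820 and 134297 counts in any other class. Genes of the dissociation and immediate-early list summed to 2703 and 6120 CPM in osteoblast-like wells, against 3398 to 20603 CPM in other classes of animal 1 and 4239 to 15140 CPM in those of animal 2. The part of the dissociation genes in the result was not tested. For depth, with each well thinned to 10000 counts, edgeR called Creb3l1 and Ssr4 higher and Dnajb9 lower, and the calls of Xbp1, Kdelr2 and Ssr3 were lost, with log2 fold changes of 0.71, 0.77 and 0.92 (edgeR adjusted p = 0.326, 0.0574 and 0.0663). The median of all genes was then -0.40, and 19 of 36 members were positive, against 26 without thinning. When each well was scaled to the same total, so that no well weighs more by depth, Creb3l1, Kdelr2 and Ssr3 were called higher and Dnajb9 lower.

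In the pericyte and smooth muscle-like class the module was low, and how low the median gene was differed between the animals. As ratios to the mean of the other classes, members had medians of 0.60 and 0.57 in animals 1 and 2. A background of 6836 genes had medians of 0.87 in animal 1 (13 wells) and 0.31 in animal 2 (4 wells). Of 36 members, 15 fell and 0 rose in the same edgeR fit, where 3.22% of all 13583 genes fell and 1.42% rose. At an unadjusted p under 0.05 there were 19 members lower and 0 higher, and DESeq2 called 16 lower and 0 higher. Among genes at a mean of at least 100 CPM, 18.1% fell, and 14 of the 26 members there did. The median log2 fold change was -1.07 for members and -1.13 for all genes, and 20 of 36 members lay above the median of all genes. This depended on the setting: with wells thinned to 10000 counts the medians were -1.12 for members and -0.58 for all genes (11 members above), with no filter on low counts -1.10 and -0.70 (10 above), and with DESeq2's Wald test -0.71 and -0.31 (10 above). Relative to genes of at least 100 CPM, whose median was -0.60, the 26 members had a median of -1.24, and 6 of them lay above it. With the size factors of DESeq2 in place of TMM, the median of all genes moved to -0.77 and 8 members were called lower.

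Ssr4 (chrX:73787028-73790830, + strand) had 141 and 464 CPM in pericyte-like wells, against at least 1006 and 1116 CPM in any other class of animals 1 and 2. Its log2 fold change was -3.14 ± 0.36 (edgeR adjusted p = 0.0008), which is 2.00 below the median of all genes. The other TRAP subunits were lowest there too: Ssr3 had 324 and 379 CPM. Kdelr2 had 316 and 303 CPM in pericyte-like wells, a log2 fold change of -2.16 ± 0.26 (edgeR adjusted p = 0.0009). Sec24d, the cargo-binding COPII subunit, had 24.3 and 25.3 CPM, against at least 61.6 and 77.5 CPM in other classes, with a log2 fold change of -2.83 ± 0.49 (edgeR adjusted p = 0.0060).

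Dnajc3, a co-chaperone that also inhibits the kinase PERK, had 0 counts in the 17 pericyte-like wells, out of 1584733 counts, and 96.2 CPM in all other wells. Over all wells Dnajc3 was detected in 30.2%, with a median of 32 counts where detected. A single such well could add that many counts, so 0 counts in 17 wells does not bound the fold. Creb3l1 had 1 count in 1 of the 17 wells, which is 0.603% of its level in all other wells. The 95% exact Poisson interval of 0.0153% to 3.36% covers counting error only. Creb3l1 was detected in 33.7% of all wells, with a median of 25 counts where detected, so that interval understates the spread. Pdia6 and Kdelr3 were also called, with log2 fold changes of -4.14 ± 0.98 and -3.20 ± 0.82 (edgeR adjusted p = 0.0318 and 0.0456), but 1 well held 75.6% and 71.8% of their few counts. Manf, a secreted stress-induced factor, had a log2 fold change of -1.59 ± 0.36 (edgeR adjusted p = 0.0264). Across the 6 alternatives run, 7 of the 15 calls held in each: Creb3l1, Dnajc3, Kdelr2, P4hb, Sec24d, Sec61b and Ssr4.

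All 8 roles had a negative median log2 fold change in pericyte-like wells, from -2.16 for KDEL receptors to -0.45 for disulfide isomerases, but single members differed. Canx, the lectin chaperone calnexin, had 355 and 169 CPM in pericyte-like wells and was the highest of the 9 classes in both animals, as was Pdia3 with 164 and 181 CPM. Both rested in part on 1 well. Without its top well Canx stood at 217 CPM in animal 1, below the 238 CPM of osteoblast-like wells of that animal. Without its top well Pdia3 stood at 33.0 CPM in animal 2. Collagen genes Col1a1, Col1a2 and Col2a1 summed to 3776 and 1067 CPM in pericyte-like wells, against 32249 and 26478 CPM in osteoblast-like wells and 29702 and 22653 CPM in chondrocyte-like wells. Median depth in pericyte-like wells was 85831 and 96989 counts, within the range of the other classes. The 2 endothelial markers measured for this check were at 0 in this class. In the dissociation and immediate-early list, 4 of 15 genes fell in pericyte-like wells (Fos, Jun, Egr1 and Ier2), with a list median of -1.39 and sums of 3398 and 5902 CPM in animals 1 and 2, and the part of this in the members' values was not tested.

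**Figure D3:**
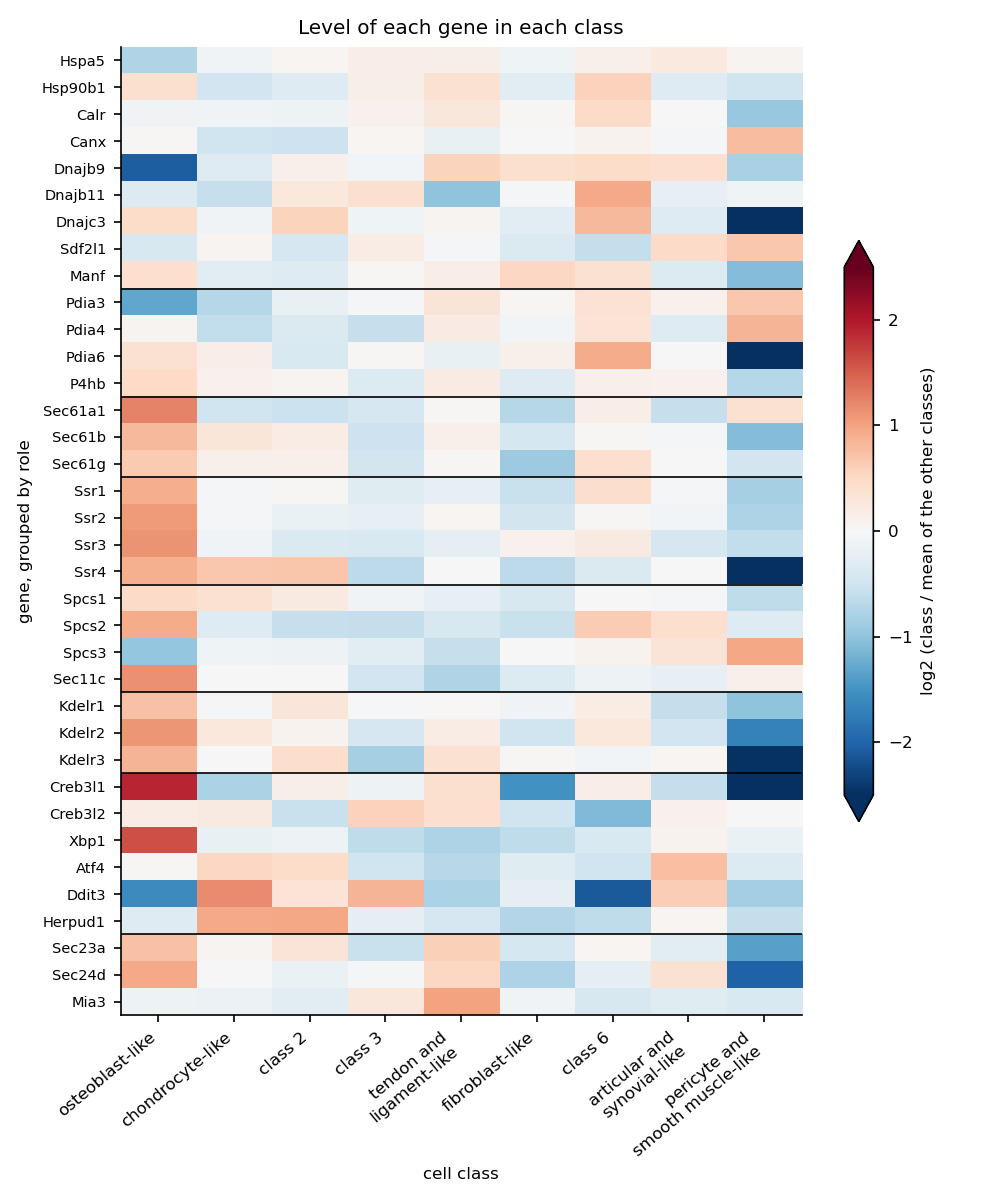
Heat map of the 36 members, grouped by role, in the 9 classes, with levels averaged over both animals, as log2 of a class's level plus 10 CPM over the mean of the other classes plus 10 CPM, with colour saturating at 2.5 in either direction. The osteoblast-like column is high for the translocon, TRAP, KDEL receptors, Creb3l1 and Xbp1, and the pericyte-like column is low for Ssr4, Kdelr2, Sec24d and Creb3l1.

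The 7 classes with at least 10 wells in each animal were compared in the planned edgeR fit of 13684 genes, and 0 members were called in each. The share of genes called in either direction was 1.00% for the chondrocyte-like class, 0.168% for class 2, 0.555% for class 3 and 0.307% for the tendon and ligament-like class. It was 1.58% for the fibroblast-like class, 0.278% for class 6 and 0.804% for the articular and synovial-like class. At an unadjusted p under 0.05 there were 5 members in each of the chondrocyte-like class, class 2 and class 3, 4 in the tendon and ligament-like class, 9 in the fibroblast-like class, 7 in class 6 and 3 in the articular and synovial-like class. DESeq2 called Ssr4 in the chondrocyte-like class and in class 2 as higher, Kdelr3 and Ssr4 in class 3 as lower, and none in the tendon and ligament-like class. It called Creb3l1 lower in the fibroblast-like class, Ddit3 lower in class 6 and Atf4 higher in the articular and synovial-like class. The fit had low power: on simulated counts for the chondrocyte-like comparison, 10% of genes changed 4-fold and 14% of those changed 8-fold were recovered. In the same simulation 7 genes outside those given a change were also called. There were 50 genes at each fold, drawn over the tested genes and not over the members.

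Among chondrocyte-like wells the members had a median log2 fold change of 0.22 against 0.39 for all genes, and 12 of 36 lay above that median. Members were more abundant than most genes tested, with median levels of 184 CPM for members and 12.3 CPM for all genes. Among genes at a mean of at least 100 CPM the medians were 0.24 for members and 0.19 for all, with 15 of 26 members above. Ddit3, the CHOP factor, was highest there of all 9 classes in both animals, with 106 and 154 CPM and a log2 fold change of 1.62 ± 0.73 (edgeR adjusted p = 0.447). Herpud1 followed with 1.21 ± 0.84 (adjusted p = 0.695). The lowest were Pdia3 at -0.61 ± 0.38 (adjusted p = 0.630) and Dnajb11 at -0.49 ± 0.41 (adjusted p = 0.802). Atf4, the stress-response factor upstream of Ddit3, had 717 and 701 CPM in chondrocyte-like wells and 699 and 914 CPM in articular and synovial-like wells, against 335 and 321 CPM in tendon and ligament-like wells. Its edgeR adjusted p was 0.0615 in the chondrocyte-like class and 0.119 in the articular and synovial-like class. The dissociation and immediate-early list was high in the same wells, at 11154 and 15010 CPM in the chondrocyte-like class and 20603 and 15140 CPM in the articular and synovial-like class, and its part in the Atf4 and Ddit3 values was not tested.

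Ssr4 separated the classes more than the other TRAP subunits did. It had 2464 and 2475 CPM in chondrocyte-like wells and 2627 and 2354 CPM in class 2, where the log2 fold changes were 0.91 ± 0.22 and 0.89 ± 0.22 (edgeR adjusted p = 0.115 and 0.254). It had 1006 and 1164 CPM in class 3 and 1053 and 1116 CPM in the fibroblast-like class. In each animal, both of the higher classes lay above both of the lower ones. Ssr2 showed no such order, with 863 and 748 CPM in chondrocyte-like wells and 910 and 551 CPM in class 3.

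In class 2 the members' median was 0.18 against 0.21 for all genes. Among genes of at least 100 CPM it was 0.14 against 0.17, with 13 of 26 members above. Herpud1 had the highest log2 fold change, 1.20, and Creb3l2 and Pdia6 the lowest, -0.37 each, none of them called by edgeR. In class 3 the median was -0.27 against 0.25 for all genes, and 4 of 36 members lay above that median. Among genes of at least 100 CPM it was -0.36 against -0.12, with 6 of 26 members above. Kdelr3 had 126 and 158 CPM in class 3, with a log2 fold change of -1.06 (edgeR adjusted p = 0.189), and Ssr4 -0.79 (adjusted p = 0.260). Ddit3 and Creb3l2, a collagen-related relative of Creb3l1, stood at 0.99 and 0.70.

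Tendon and ligament-like wells had a members' median of 0.26 against -0.05 for all genes, with 26 of 36 members above that median. Among genes of at least 100 CPM it was 0.23 against 0.03, with 17 of 26 members above. The highest values belonged to the procollagen exporter Mia3, with 84.4 and 100.3 CPM and a log2 fold change of 1.33 ± 0.61 (edgeR adjusted p = 0.533), and to Creb3l1 at 0.87 ± 0.33 (adjusted p = 0.445). The lowest were Dnajb11 at -1.16 ± 0.44 (adjusted p = 0.449) and Ddit3 at -0.76. Class 6 had a median of 0.14 against 0.07 for all genes, and its direction turned with the animal: -0.16 without animal 1 and 0.40 without animal 2. Among genes of at least 100 CPM the class 6 medians were 0.14 for members and -0.02 for all, with 18 of 26 members above. Dnajb11 was highest there of all 9 classes in both animals, at 139 and 96.4 CPM, with a log2 fold change of 1.04 ± 0.37 (edgeR adjusted p = 0.399). Spcs2 of the signal peptidase had 0.79 ± 0.27 (adjusted p = 0.370), while Ddit3 had -3.07 ± 1.09 (adjusted p = 0.399) and Creb3l2 -1.31 ± 0.51 (adjusted p = 0.467).

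Fibroblast-like wells had a members' median of -0.31 against 0.03 for all genes, and 7 of 36 members lay above that median. Among genes of at least 100 CPM it was -0.31 against -0.07, with 7 of 26 members above. Creb3l1 had 47 and 28 CPM there, with a log2 fold change of -1.50 ± 0.40 (edgeR adjusted p = 0.141). Sec61g, the small gamma subunit of the translocon, had 18.9 and 20.6 CPM, the lowest of the 9 classes in both animals, and -1.19 ± 0.47 (adjusted p = 0.362). The highest were Manf at 0.48 ± 0.21 (adjusted p = 0.431) and Ssr3 at 0.26 ± 0.16. Articular and synovial-like wells had a median of -0.09 against -0.31 for all genes, with 26 of 36 members above that median, and the median was 0.14 without animal 1 and -0.34 without animal 2. Among genes of at least 100 CPM the medians of this class were -0.094 for members and -0.095 for all, with 13 of 26 members above. Sdf2l1 and Ddit3 were highest there with 0.76 and 0.74, and Kdelr1 and Dnajc3 lowest with -0.75 ± 0.37 (edgeR adjusted p = 0.473) and -0.61 ± 0.36 (adjusted p = 0.579).

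Collagen is a secreted product of skeletal cells, and the module was set beside it in each well. Collagen meant the summed counts of Col1a1, Col1a2 and Col2a1, and both sums were scaled to totals that leave out members and collagen genes. Across wells, Spearman's rho was 0.50 in animal 1 (n = 318 wells) and 0.47 in animal 2 (n = 335 wells), with Pearson's r of 0.50 and 0.39. Wells of an animal share a plate and differ in depth, and the module's own rho with depth was 0.44 and 0.30, so these are descriptions. Within a class of an animal with at least 10 wells, rho ran from -0.13 to 0.62, and 14 of 16 values were positive. In chondrocyte-like wells it was 0.18 in animal 1 and 0.43 in animal 2.

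Single members differed in this relation. Ssr4 had the highest rho with collagen in both animals, 0.44 and 0.48, followed in animal 1 by Kdelr2 with 0.43 and 0.34 in animals 1 and 2. Creb3l1 had 0.31 and 0.22. These values pool classes whose levels differ: within chondrocyte-like wells Ssr4 had 0.13 and 0.49 and Kdelr2 0.19 and 0.21, and in animal 1 Spcs1 was highest with 0.24. The lumenal chaperone Hspa5 had -0.03 and -0.07, and Manf -0.05 and -0.16. Each member's rho with the sum of the other members was above 0 in both animals, with medians of 0.20 and 0.18 over the 36. These values pool classes and wells of unlike depth, and those of other genes are not given here. They are therefore not read as particular to the module.

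**Figure D4:**
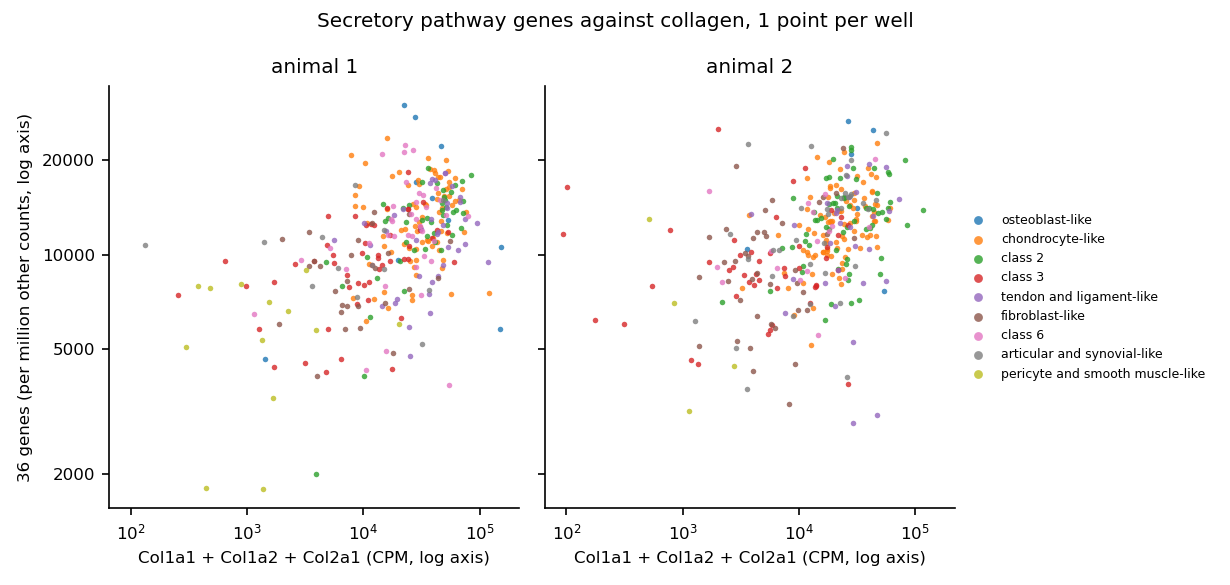
Summed level of the 36 members against summed Col1a1, Col1a2 and Col2a1, both in CPM on log axes with totals that leave out both sets, 1 point per well coloured by class, with a panel for each animal. The points rise together, with Spearman's rho of 0.50 over 318 wells and 0.47 over 335 wells.

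To compare within cell types, each class of each animal was split at its median collagen share, and collagen-high wells were set against collagen-low wells over 7 classes in 1 edgeR fit with class and animal as a block. Of 7669 genes tested, 0.235% were called, and 0 of 36 members. At an unadjusted p under 0.05 there were 10 members, and DESeq2 called 6: Creb3l1, Mia3, Sec24d, Spcs1, Spcs3 and Ssr4. The members' median log2 fold change was 0.24 against 0.00 for all genes, and 26 of 36 members were positive. Among genes of at least 100 CPM the medians were 0.22 for members and -0.03 for all, with 20 of 27 members above. On simulated counts for this comparison, 18% of genes changed 4-fold and 32% of those changed 8-fold were recovered, and 0 other genes were called.

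Mia3, Creb3l1, Spcs3 of the signal peptidase and Sec24d had the highest log2 fold changes. Mia3 averaged 73.3 ± 8.88 CPM in collagen-high wells and 30.0 ± 16.1 CPM in collagen-low wells (SD, n = 2 animals). Its fitted log2 fold change was 2.71 ± 1.10 (edgeR adjusted p = 0.514). The fit averages the differences within the classes, and this value is larger than the log2 ratio of the 2 averages in CPM. Creb3l1 had 205 and 95.1 CPM in collagen-high wells of animals 1 and 2, against 61.1 and 49.8 CPM in collagen-low wells, and 1.63 ± 0.60 (adjusted p = 0.442). Sec24d had 169 and 159 CPM in collagen-high wells, against 87.7 and 80.3 CPM in collagen-low wells, and 1.07 ± 0.22 (adjusted p = 0.115). Spcs3 had 1.54 ± 0.61 (adjusted p = 0.492), also larger than the log2 ratio of its averages, 73.0 CPM in collagen-high and 45.2 CPM in collagen-low wells. Mia3, Creb3l1, Sec24d and Spcs3 were each higher in collagen-high wells in both animals without overlap, and none passed the threshold over all genes. Other members did not overlap either, among them Spcs1 and Ssr4. The share of all genes without overlap is not given here, so this is not read as particular to these genes. Sec24d alone was called when wells were thinned to 10000 counts. The lowest were Creb3l2 at -0.41 ± 0.56 and Sec11c, a catalytic subunit of signal peptidase, at -0.32 ± 0.51, with edgeR adjusted p of 0.999 and 1.

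Roles differed in their medians. The vesicle coat and procollagen export members had a median of 1.07 with 3 of 3 positive, KDEL receptors 0.34 with 3 of 3 and TRAP subunits 0.29 with 4 of 4. Chaperones had a median of -0.01 with 4 of 9 positive. The summed module was higher in collagen-high wells in 11 of 14 pairs of class and animal, with ratios of 0.851 to 1.30, and higher in both animals in 4 of the 7 classes. Depth moved with the split in some classes. Articular and synovial-like wells of animal 2 had a median of 128415 counts in the collagen-high wells and 75272 in the collagen-low wells. With the split adjusted for depth, the members' median over all classes was 0.30.

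**Figure D5:**
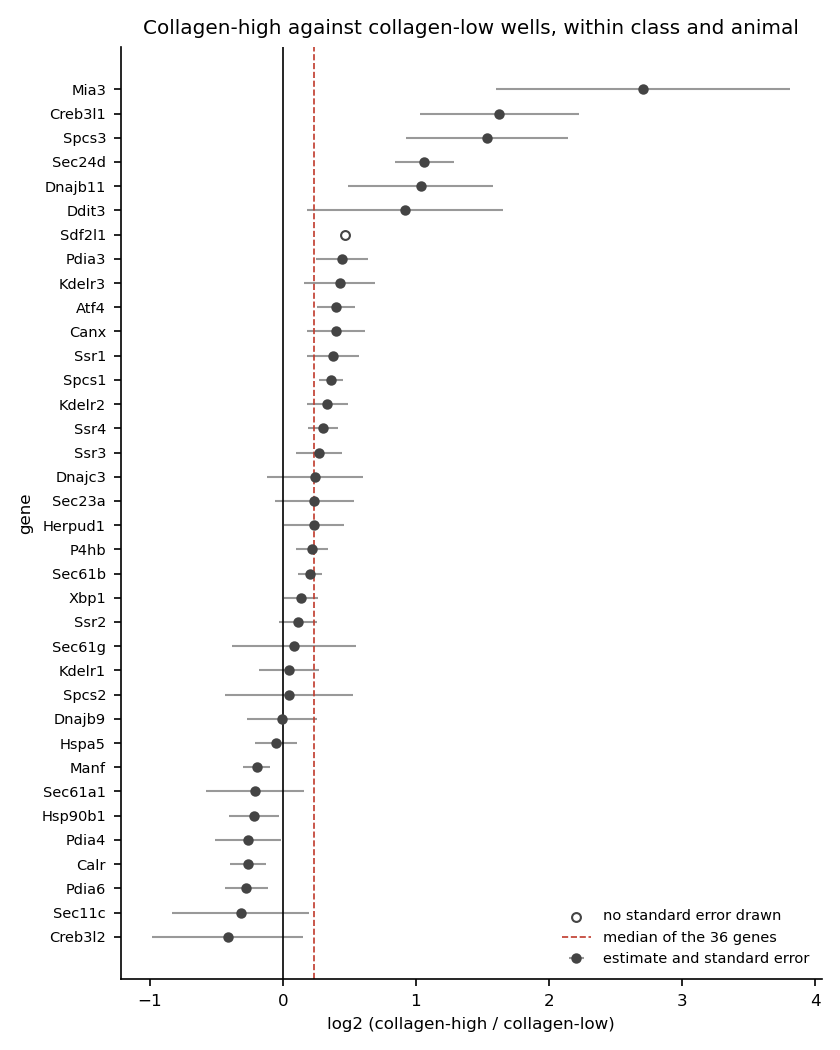
Log2 fold change of each member between collagen-high and collagen-low wells, with its standard error, ordered by size, with a dashed line at the members' median of 0.24. The value of Sdf2l1 is drawn without an error bar. Mia3 at 2.71, Creb3l1 at 1.63, Spcs3 at 1.54 and Sec24d at 1.07 lie highest, and chaperones lie on both sides of 0.

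Neighbouring steps of the pathway were read from 8 lists. In osteoblast-like wells 2 of 12 genes of the oligosaccharyltransferase, which adds glycans in the ER, rose: Ostc by 1.06 ± 0.22 and Krtcap2 by 0.83 ± 0.17 (edgeR adjusted p = 0.035 and 0.037). Of 14 genes of collagen folding and modification tested, the prolyl hydroxylase subunit P4ha2 rose, by 2.29 ± 0.49 (edgeR adjusted p = 0.041). In collagen-high wells Krtcap2 was the gene of these lists that rose, with 1316 and 1433 CPM against 911 and 1018 CPM in collagen-low wells of animals 1 and 2 and a log2 fold change of 0.50 ± 0.078 (edgeR adjusted p = 0.042).

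In pericyte-like wells 5 of 14 collagen folding genes fell, among them Serpinh1, the collagen chaperone HSP47, and Ppib with -1.64 ± 0.16. Of COPI and cargo receptor genes 4 of 16 fell, of COPII genes 2 of 12, of oligosaccharyltransferase genes 3 of 12, of signal recognition genes 2 of 13 and of degradation genes 1 of 11. In this class 3.22% of all genes tested and 18.1% of those at a mean of at least 100 CPM fell, so nothing particular is read from these counts. Among the 7 classes, calls of prolyl hydroxylase genes depended on the fit. In the planned fit P4ha1 rose in tendon and ligament-like wells by 1.49 ± 0.24 (edgeR adjusted p = 0.048). In the same fit P4ha3 rose in fibroblast-like wells (edgeR adjusted p = 0.043). Its level there was 88.9 and 71.4 TMM-scaled CPM, against means of 36.3 and 31.4 CPM over the other classes. P4ha3 had 0 counts in articular and synovial-like wells. With the pericyte-like and osteoblast-like classes added to the fit, edgeR called P4ha3 higher in tendon and ligament-like wells, fibroblast-like wells and class 6. P4ha1 was then not called in tendon and ligament-like wells, so neither gene is read as particular to 1 class. Of the ER stress list, edgeR called 0 of 13 genes in each of the 7 classes, 0 of 11 in each of the pericyte-like and osteoblast-like classes and 0 of 8 in collagen-high wells, and at an unadjusted p under 0.05 there were at most 3 in any of these comparisons.

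Between the animals side by side, which share no plate, most members were close. Creb3l1 had 135 CPM in animal 1 and 75.3 CPM in animal 2, a ratio of 1.79. Ddit3 had 60.4 and 105 CPM, a ratio of 0.57. Of the 36 members, 10 share exons with another gene of the table, among them Ddit3, Hsp90b1, Pdia3, Ssr2 and Manf, and whether the counting used strand is not given in the sources used here, so reads of such pairs may have been split.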

How the data were processed

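The authors deposited a table of whole-number counts per gene and well, made with CASAVA and build mm10 per the submitters' processing notes. For the aligner, the counting tool, its annotation and strand setting, and the handling of duplicate reads, the method is not given in the sources used here. The members and lists were chosen with earlier results of these data known, and the printing of every promoter match was chosen after the matches were seen.

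A well was kept with 500 or more detected genes and a mitochondrial share of at most 20%. Log counts per 10000 of 113 marker genes, taken from 17 lists with 129 genes in the table, were centred per animal and reduced to 20 principal components. A graph of 15 neighbours was then split by Leiden clustering at resolution 1 (leidenalg 0.10.2, igraph 0.11.9, Python 3.11.15 with pandas 2.3.3, scipy 1.17.1 and numpy 2.4.6). A class was named when at least 3 markers of a list had a log2 ratio of 1 or more and were detected in 10% or more of its wells, and the list led its top 10 genes. Doublets were not called. Genes used to form the classes were left out of the test, and none is a member.

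Counts were summed per animal and class and tested with edgeR 4.0.16 under R 4.3.3 (limma 3.58.1; quasi-likelihood, TMM, filterByExpr, animal as a block), over 14 sums with 6 residual degrees of freedom. The collagen split gave 28 sums with 7 residual degrees of freedom, and its 3 collagen genes were left out of totals and test. The 2 animals are littermates, so p-values rest on the spread of these sums. The ± beside a log2 fold change is its standard error. CPM by class are scaled to the plain total and those of the collagen split to TMM-scaled totals. DESeq2 1.42.0 was an alternative. The procedure was tested on simulated counts. The Poisson interval covers counting error only and treats counts as independent.

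Named members are those called, up to 8 by absolute log2 fold change, or else the 2 highest and the 2 lowest; members named beyond these were chosen after their values were seen. Gene positions are from GENCODE on mm10. Figures were drawn with matplotlib 3.10.9.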

Additional observations from a re-analysis of the deposited data

How the results depend on the processing

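Most values kept their direction and their side of the threshold: of 438 values for named members under the alternatives, 407 did, 11 lost a call, 10 gained one and 10 changed sign. The number of members called in the 7 classes was 0 in the planned edgeR fit. At Leiden resolution 0.5 it was 1 in the chondrocyte-like class (Atf4) and 1 in the fibroblast-like class (Ssr4, lower). With wells thinned to 10000 counts it was 4 in the chondrocyte-like class (Atf4, Ddit3, Sec61b and Ssr4) and 1 each in class 2, class 3, the articular and synovial-like class and the collagen-high wells. With DESeq2 it was 1 in each of the chondrocyte-like, class 2, fibroblast-like, class 6 and articular and synovial-like comparisons, 2 in class 3 and 6 in collagen-high wells. In the osteoblast-like class 4 members were called, against 8 with the size factors of DESeq2, 2 with no filter on low counts and 12 with its Wald test. In the pericyte and smooth muscle-like class 15 were called, against 8 with these size factors. The causes were not tested.

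The replicate block is the animal, which is also the plate, so wells of an animal share both. With no replicate block, edgeR called 0 members in each of the 7 classes and in the collagen-high wells, 16 in the pericyte-like class and 6 in the osteoblast-like class.

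The members' median log2 fold change moved in some comparisons. In collagen-high wells it was 0.24, and 0.28 with DESeq2 size factors, 0.40 when wells of the highest collagen were set against those of the lowest and the middle was left out, 0.28 after thinning, 0.18 when split on Col1a1 and Col1a2 alone, 0.29 with DESeq2, 0.30 when the split was adjusted for depth and 0.21 in chondrocyte-like wells alone, with 0.24 to 0.26 when either animal was left out. In the pericyte-like class it was -0.71 with either DESeq2 setting and -1.36 to -0.99 when either animal was left out, and in the osteoblast-like class 0.12 after thinning and 0.33 to 0.78 when either animal was left out. When either animal was left out it ran from -0.16 to 0.40 in class 6 and from -0.34 to 0.14 in the articular and synovial-like class. These values from 1 animal have no residual degrees of freedom and no test. The summed module was 16839 to 19270 CPM in the osteoblast-like class and 10354 to 12791 CPM in the articular and synovial-like class when either animal was left out. As a median over wells it was 14976 CPM in the osteoblast-like class and 11182 CPM in class 6.

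None of the values that changed sign had been called. With the 2 small classes added, Pdia6 was 0.13 in class 2 and Dnajc3 0.87 in the articular and synovial-like class. At resolution 0.5, Dnajb11 was 0.47 in the tendon and ligament-like class and Ssr3 -0.15 in the fibroblast-like class. Ddit3 was -0.13 in the articular and synovial-like class after thinning, and Creb3l2 was 0.0043 in class 2 without animal 1. In collagen-high wells Creb3l2 was 0.64 when adjusted for depth, 0.12 in chondrocyte-like wells alone and -1.44 to 0.54 when either animal was left out, and Sec11c was 0.63 in chondrocyte-like wells alone. Within the chondrocyte-like class alone edgeR called 0 of 10740 genes between collagen-high and collagen-low wells. Depth limits genes such as Sdf2l1, seen in few wells, for which no difference was detectable.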

Other observations

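The module's summed level ranged from 10579 to 12717 CPM over the plate quadrants of both animals. Within the osteoblast-like class Ssr3 was detected in 15, Xbp1 in 14, Kdelr2 in 13 and Creb3l1 in 10 of 16 wells. In the pericyte and smooth muscle-like class Sec61b, Kdelr2 and Spcs1 were each detected in 15 of 17 wells, Ssr4 in 9, Pdia6 and Kdelr3 in 4 and Dnajc3 in 0.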
